A study of Mus musculus with 18 samples.

Results

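Sorted CD29-low (CD29L) cells of mouse mammary tumors were compared across the CD24 gate, with CD24-high (CD24H) cells set against CD24-low (CD24L) cells of the same tumor. The comparison rested on 6 of the 18 arrays of the series, 3 of CD29L CD24H cells and 3 of CD29L CD24L cells. They were chosen by their labels and paired by tumor number (tumors 1, 2 and 7). Tumors 1 and 2 were labelled as transplant generation 1, and the labels gave no generation for tumor 7. Genotype, strain and age are not in the labels. The study is known for work on p53-null mouse mammary tumors carried by transplantation. The other arrays held CD29-high (CD29H) CD24H and CD29H CD24L cells of the same tumors (3 each) and 1 reference RNA. A further 5 arrays held sorted fractions labelled as normal mammary epithelial cells. The series text names antibodies against CD29 and CD24 for the sort and no others. Each array hybridised RNA that had been amplified in rounds of copying before labelling. Nothing states that these samples were separate sorts, so the p-values measure only the spread between these samples, which may be partly technical.

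CD24 is a small mucin-like surface protein held by a lipid anchor, and its level is used with CD29, the integrin beta 1 chain, to separate luminal, basal and stromal cells of the mammary gland. Many leukocytes also carry CD24 at some stage of their development. T cells and natural killer cells recognise other cells through their receptors and can kill them by releasing granzymes, while cytokine receptors and costimulatory receptors tune their activity.

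The transcript of the sorted marker did not separate the groups. Cd24a had signals of 37525, 49678 and 48269.7 in CD29L CD24H cells of tumors 1, 2 and 7, against 43384, 18257 and 41916 in CD29L CD24L cells. The groups overlapped. In tumor 1 the signal was higher in CD24L than in CD24H cells, in tumor 7 it was somewhat lower, and tumor 2 held the largest gap. Without tumor 2 the fitted difference was -0.0028. All 3 Cd24a probe sets had a difference above 0, and the one used gave 0.48 ± 0.27 (log2 difference ± SE from the fit, here and below, n = 3 pairs) with an adjusted p of 0.617. The gate was set on the protein and not on the transcript. Itgb1, which encodes CD29, had 1049, 1489.7 and 8532 in CD24H cells, against 1118, 458 and 2064 in CD24L cells, a difference of 1.19 ± 0.51 that did not pass (adjusted p = 0.512).

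Of the 10916 genes tested, 10 passed an adjusted p of 0.05 in limma, which is 0.0916% of them. In CD29L CD24H cells 9 genes fell (0.0824%), among them Icos, Ms4a4b and Gzmb of the T-cell and cytotoxic lists and the chemokine gene Ccl5. The same fraction had 1 gene that rose (0.00916%), Brcc3. At an unadjusted p under 0.05 were 998 genes (9.14%), 531 higher (4.86%) and 467 lower (4.28%) in CD24H cells. The groups did not overlap for 800 genes (7.33%), 464 higher (4.25%) and 336 lower (3.08%). A difference above 0 was held by 55.2% of genes and one below 0 by 44.8%. The median difference over all genes tested was 0.06.

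Promoter sequence is shown for 3 of the genes that fell together, a granule protease, a cytokine receptor and an inhibitor of NF-kappaB, since such genes are known to be read by RUNX, ETS and NF-kappaB factors. The 250 bases before each gene start are from RefSeq (GRCm38.p6), 5′ to 3′ on the gene's own strand, for Gzmb at chr14:56262335-56262584 (minus strand), Il7r at chr15:9529877-9530126 (minus strand) and Nfkbie at chr17:45555450-45555699 (plus strand). Capitals mark TGTGGT (the RUNX core) in Gzmb, AGGAAG (an ETS core, here on the other strand) in Il7r, and in Nfkbie the overlapping kappaB-type letters GGGNNTTCC and the same with a further N in the middle.
Gzmb: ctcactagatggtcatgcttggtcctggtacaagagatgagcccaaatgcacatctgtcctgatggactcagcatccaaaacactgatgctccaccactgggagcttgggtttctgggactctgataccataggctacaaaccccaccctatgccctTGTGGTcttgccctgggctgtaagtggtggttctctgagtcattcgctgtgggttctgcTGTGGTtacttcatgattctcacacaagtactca
Il7r: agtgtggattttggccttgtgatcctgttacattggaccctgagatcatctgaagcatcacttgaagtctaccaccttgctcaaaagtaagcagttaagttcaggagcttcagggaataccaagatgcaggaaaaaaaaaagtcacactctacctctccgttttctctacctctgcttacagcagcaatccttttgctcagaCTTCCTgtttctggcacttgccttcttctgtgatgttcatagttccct
Nfkbie: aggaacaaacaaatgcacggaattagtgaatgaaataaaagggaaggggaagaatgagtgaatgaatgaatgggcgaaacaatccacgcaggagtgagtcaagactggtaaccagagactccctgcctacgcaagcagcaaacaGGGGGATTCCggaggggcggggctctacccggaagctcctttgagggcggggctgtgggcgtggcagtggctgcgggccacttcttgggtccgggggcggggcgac
The motifs and the 3 promoters were chosen after these sequences had been read, so the matches are only a description. Promoters of 8 of the 10 genes were matched, with 11 entries, and Brcc3, which rose, was among the 8. On either strand TGTGGT was present in 2 of the 11 entries (14% of all 32851 promoters hold it) and AGGAAG in 5 (29.5%). GGGNNTTCC was present in 1 (4.98%) and its longer form in 2 (4.65%). By gene the counts were 2, 4, 1 and 2 of the 8, where some genes had several entries.

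Icos, the inducible costimulatory receptor of activated T cells, had the lowest difference. Its signal was 101, 212 and 88.5 in CD29L CD24H cells of tumors 1, 2 and 7, against 5697, 927 and 3525 in CD29L CD24L cells. The groups did not overlap, and the CD24L cells of tumor 2 were the lowest of their group. The difference was -4.10 ± 0.53 (adjusted p = 0.00726), and all 3 Icos probe sets were below 0.

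Ms4a4b, a membrane protein of T cells, had 36.7, 78.8 and 10.8 in CD24H cells, against 1314, 369 and 1625 in CD24L cells. Every CD24L value lay above every CD24H value (difference -3.81 ± 0.49, adjusted p = 0.00726). Its other probe set was dim on these arrays and had a difference near 0. P2ry10, a receptor for lysophospholipids on lymphocytes, had 31.1, 102 and 36.5 in CD24H cells, against 937, 429 and 803 in CD24L cells. It fell by 3.11 ± 0.42 on the log2 scale (adjusted p = 0.00726).

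Gzmb encodes granzyme B, a protease of cytotoxic granules. Its signal was 51.2, 95.1 and 8.90 in CD24H cells, against 727, 331 and 466 in CD24L cells. The groups stood apart, with a difference of -2.77 ± 0.48 (adjusted p = 0.0432). The chemokine gene Ccl5, made by T cells among others, had 148, 141 and 59.6 in CD24H cells, against 1224, 2315 and 686 in CD24L cells. It fell by 3.18 ± 0.51 (adjusted p = 0.0253), and here tumor 2 held the highest CD24L value.

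The interleukin 7 receptor alpha chain, Il7r, carries a survival signal to lymphocytes. Its signal was 219, 702 and 109 in CD24H cells, against 2719, 1278 and 1311 in CD24L cells, with no overlap. The difference was -2.51 ± 0.40 (adjusted p = 0.0253), and the gap was narrowest in tumor 2. Il18r1, a chain of the interleukin 18 receptor, had 7.41, 15.4 and 218 in CD24H cells, against 419, 292 and 894 in CD24L cells. Tumor 7 was the highest of both groups, and the difference was -2.73 ± 0.42 (adjusted p = 0.0253).

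AW112010, an interferon-inducible transcript, had 129, 92.7 and 58.7 in CD24H cells, against 432, 527 and 662 in CD24L cells. It fell by 2.21 ± 0.33 (adjusted p = 0.0208). Nfkbie, which encodes the NF-kappaB inhibitor epsilon, had 351, 869.7 and 438 in CD24H cells, against 1416, 2540.1 and 1409 in CD24L cells. Tumor 2 was the highest of both groups, and the difference was -1.68 ± 0.29 (adjusted p = 0.0432).

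Brcc3, a deubiquitinase of the BRCA1-A complex in DNA repair, had 1039.8, 1460.4 and 1131 in CD24H cells, against 309, 248 and 329 in CD24L cells. The groups stood far apart on this probe set, at 1.92 ± 0.31 (adjusted p = 0.0256). The other 4 Brcc3 probe sets had differences of 0.08, 0.37, 0.06 and 0.42. The probe set used belongs to a class whose probes can match other transcripts, and without tumor 2 another probe set was the brightest and gave -0.14.

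**Figure D1:**
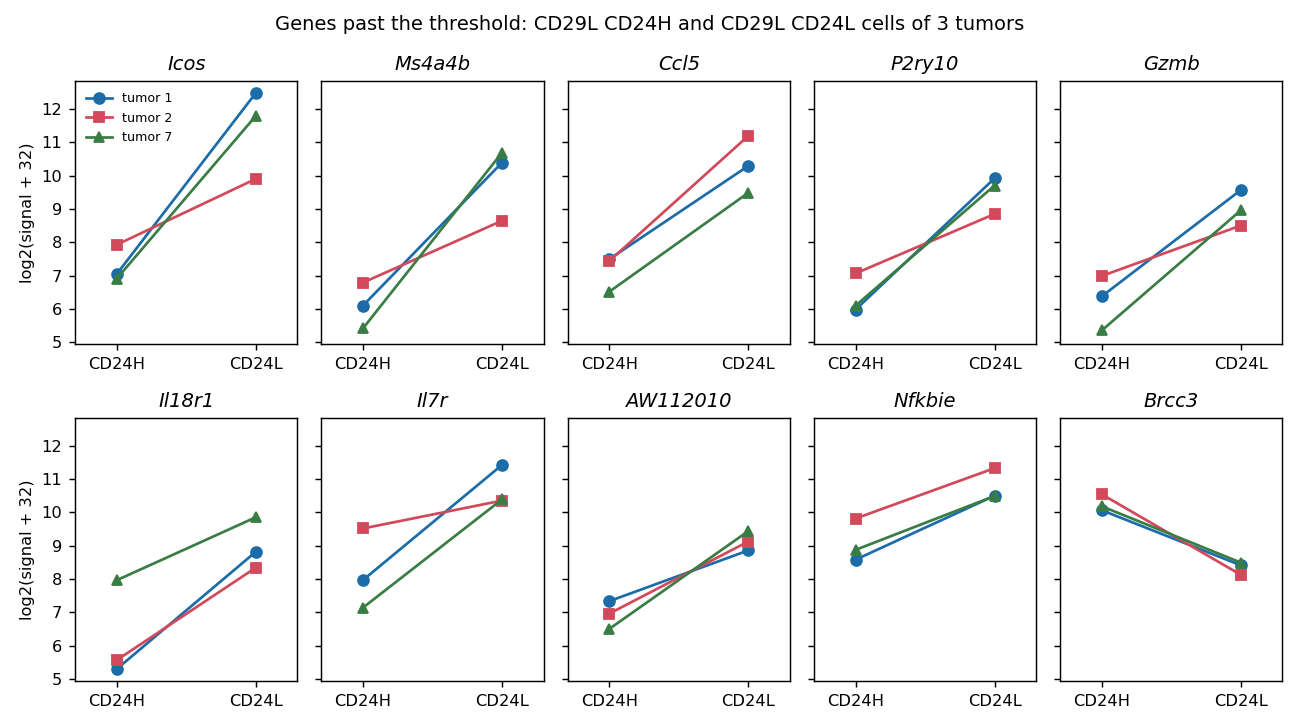
Signal of the 10 genes past the threshold in CD29L CD24H cells (left in each panel) and CD29L CD24L cells (right), on the log2(signal + 32) scale, with 1 line per tumor. Every line climbs toward CD24L cells for 9 genes and drops for Brcc3, and the line of tumor 2 is the flattest for 6 of those 9.

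The pairing and single libraries bore on this count. Tumor 2 held the smallest difference for 6 of the 9 genes that fell. A fit without the tumor block called 2 genes, Ms4a4b and P2ry10. No gene passed without the CD24H cells of tumor 1, the CD24H cells of tumor 7, the CD24L cells of tumor 1, or the whole of tumor 1 (limma, with 932, 495, 981 and 847 genes at an unadjusted p under 0.05). Without tumor 7, 1 gene passed, S100a9, and without the CD24L cells of tumor 7, 5 passed. Without the CD24L cells of tumor 2, or without tumor 2 as a whole, 20 genes passed in each fit, and 5 of the 10 were among them. The ratio of 3′ to 5′ actin signal, a sign of RNA quality and amplification, was 49.6 to 58.7 in CD24H cells and 14.4 to 99.3 in CD24L cells, with the lowest value in tumor 2. With this ratio as a covariate 33 genes passed, all 10 among them. The 2 tumor arrays of lowest actin ratio were the CD29L CD24L (14.4) and CD29H CD24H (23.2) cells of tumor 2. Without them 19 genes passed. The same ratio for Gapdh was higher in CD24H cells within each tumor, at 39.9, 24.2 and 47.9 in CD24H cells of tumors 1, 2 and 7, against 23.7, 12.7 and 27.9 in CD24L cells. With the Gapdh ratio as a covariate none of the 10 genes passed (limma, 262 genes at an unadjusted p under 0.05), and 1 other gene did, Nrip2, named after its value was seen. The 9 genes that fell were still below 0 in that fit, Icos at -4.66 (adjusted p = 0.181), and Brcc3 above 0. RNA quality as this ratio shows it moved with the CD24 gate, and its part in the result was not tested beyond these fits.

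Markers of leukocytes were measured beside these genes. In a bulk sample, fewer cells of a type and less RNA per cell cannot be told apart. Of 13 pan-leukocyte genes tested (of 15 on the array), 11 had a difference below 0 and none passed the adjusted threshold, with 7 at an unadjusted p under 0.05. Of all genes tested 44.8% were below 0 and 4.28% were lower at that p. The median difference of the 13 was -0.81, where all genes tested had 0.06. The summed signal of the 15 genes was 10199 to 33476 in CD24H cells and 25648 to 35718 in CD24L cells, so the groups overlapped. Ptprc, which encodes CD45, the phosphatase on all leukocytes, had 323, 1874 and 538 in CD24H cells, against 2982, 2428 and 3316 in CD24L cells. Its groups did not overlap, but the CD24H cells of tumor 2 came close (difference -2.0 ± 0.45, adjusted p = 0.162). Ptprc was among the genes past the threshold without tumor 2. Cd53, a tetraspanin of leukocytes, had 329, 1902 and 289 in CD24H cells, against 2689, 1904 and 1458 in CD24L cells. In tumor 2 its signal was nearly equal between the gates. Itgal, an integrin chain of leukocytes, had a difference of -1.66 ± 0.46, and Cd52, a surface peptide of lymphocytes, -1.59 ± 0.39, neither past the threshold. Itgal reached the test only through the CD29L CD24L arrays, without which its mean was under the filter on dim genes. The share of leukocytes in each fraction was not measured, and its part in the result was not tested.

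T-cell genes were mostly dim, so that 7 of 18 receptor and signalling genes, 4 of 14 costimulatory genes and 5 of 16 cytotoxic genes on the array reached the test. Of the receptor genes 5 of 7 were below 0 and none passed, with a median of -0.54. Of the costimulatory genes all 4 tested were below 0, Icos alone passed, and the median was -1.35. Of the cytotoxic genes 4 of 5 were below 0, Ms4a4b and Gzmb passed, and the median was -2.12. Ms4a4b, Gzmb and Gzma of that list reached the test only through the CD29L CD24L arrays, without which their means were under the filter, so the counts and medians of tested members do not support a direction. Of the 10 genes called this held for 4, the others being P2ry10 and Il18r1. In other lists it held for Itgal, Lcp2, Cpa3, Ccl20, Ccr2, Ifit3 and Gata3, for which the filter favoured a difference below 0. It held for 131 of all 10916 genes tested. The medians also moved with single tumors, to -0.23 without tumor 7 for the receptor list, -2.92 without tumor 2 for the costimulatory list and -0.62 without tumor 1 for the cytotoxic list. The receptor median was above 0 (0.037) under 1 alternative. Over every member on the array the medians were -0.57, -0.95 and -1.47, and over all 18193 genes 0.05. The summed signal of the 16 cytotoxic genes was 824 to 1310 in CD24H cells, against 2736 to 6158 in CD24L cells. That of the 14 costimulatory genes was 908 to 1658, against 2527 to 9519. Neither pair of ranges overlapped, and these sums hold the genes called, Icos at 5697 in the highest CD24L sum. That of the 18 receptor and signalling genes was 1741 to 4969, against 4581 to 7243, which overlapped.

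Cd8a, the co-receptor chain of cytotoxic T cells, had 141, 131 and 233 in CD24H cells, against 2058, 331 and 1276 in CD24L cells. The groups did not overlap, at -2.35 ± 0.58 (adjusted p = 0.212). Gzma, the granzyme A gene, had 17.2, 63.2 and 64.4 in CD24H cells, against 631, 210.4 and 197 in CD24L cells (adjusted p = 0.149). Fyb, an adaptor of T-cell signalling, had a difference of -1.66 ± 0.36 (adjusted p = 0.149), and Tnfrsf18, a costimulatory receptor, -1.13 ± 0.38 (adjusted p = 0.408). Tnfrsf9, another such receptor, had 205, 429 and 131 in CD24H cells, against 1165, 223 and 1529 in CD24L cells, and tumor 2 ran the other way. Zap70, the kinase of the receptor, had a difference of 0.59 ± 0.29, which turned to -0.41 when probe sets were averaged.

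With no filter on dim genes, 17 of 18193 genes passed, 16 lower in CD24H cells (0.0879%) and 1 higher (0.00550%). The 10 genes were all among them, and the 7 added were Cd3g, Ctla4, Pdcd1, Jakmip1, Klrc1, Rundc3b and Stat4. These genes, and Cd4, Cd8b1, Klrk1, Il2rb and Btla below, were chosen for mention after their values were seen. Pdcd1, the inhibitory receptor PD-1, had 8.63, 11.7 and 15.5 in CD24H cells, against 448, 78.4 and 337 in CD24L cells. Ctla4, another inhibitory receptor, had 35.5, 71.0 and 54.7, against 670.2, 259 and 529. Cd3g, a chain of the T-cell receptor complex, had 11.1, 46.5 and 7.72, against 330.3, 127 and 364. All 3 stood apart between the groups, with tumor 2 lowest among CD24L cells. The helper co-receptor Cd4 was dim in all 6 arrays, at 47.9, 16.2 and 16.5 in CD24H cells, against 15.9, 6.41 and 53.6 in CD24L cells, and Cd8b1 stayed at or under 95.4. Their differences were 0.08 and 0.03. Klrk1 (1.00 ± 0.40), Il2rb (0.73 ± 0.47) and Btla (0.67 ± 0.43) were above 0 and did not pass. With no filter 14 of 18 receptor, 12 of 14 costimulatory and 13 of 16 cytotoxic genes were below 0, where 8207 of all 18193 genes were.

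Neutrophil and mast cell genes included large differences that missed the threshold. S100a9, an alarmin of neutrophils, had 114, 208 and 187 in CD24H cells, against 2235, 2039.5 and 451 in CD24L cells. The groups did not overlap, and the difference of -2.74 ± 0.49 had an adjusted p of 0.0562, the next after the 10 genes. Its partner S100a8 had 1665, 1996 and 4728 in CD24H cells, against 32249, 7422 and 4747 in CD24L cells, with tumor 7 nearly equal. Il1b, the cytokine interleukin 1 beta, had a difference of -1.80 ± 0.36 (adjusted p = 0.116), and the lectin receptor Clec4e -1.59 ± 0.40 (adjusted p = 0.212). Of 9 neutrophil genes tested 8 were below 0, 6 of them at an unadjusted p under 0.05, with a median of -1.30. Of all genes tested 44.8% were below 0 and 4.28% were lower at that p. The summed signal of the 13 neutrophil genes on the array was 4082 to 10524 in CD24H cells and 9937 to 39459 in CD24L cells. These ranges overlapped, and S100a8 alone reached 32249 in CD24L cells. Csf3r (-0.50 ± 0.38) and Cxcr2 (-0.52 ± 0.38) were under the filter and did not pass with no filter. Both mast cell genes tested were below 0, but Cpa3 reached the test only through the CD29L CD24L arrays, so this does not support a direction. Of all 8 mast cell genes on the array 6 were below 0, with a median of -0.52. Hdc, which makes histamine, had 295, 383 and 18.8 in CD24H cells, against 631, 886 and 417 in CD24L cells (adjusted p = 0.184), and Cpa3, a granule protease, had a difference of -1.48 ± 0.46 (adjusted p = 0.376).

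No member of the other myeloid and lymphoid lists passed. Of 18 macrophage genes 15 were below 0, with a median of -0.62 and 4 at an unadjusted p under 0.05. Of all genes tested 44.8% were below 0 and 4.28% were lower at that p. Cybb, a subunit of the phagocyte oxidase, had a difference of -1.10 ± 0.35 (adjusted p = 0.404), and the mannose receptor Mrc1 -1.0 ± 0.41 (adjusted p = 0.488), with tumor 2 just above 0. The B and plasma cell list had a median of 0.10 over 7 genes, 5 of them above 0 and 2 below. Cd22 of this list was at 0.47 ± 0.37 with groups that did not overlap (adjusted p = 0.725). Ighm, the heavy chain of IgM, ran the other way, with 348, 76.9 and 419.9 in CD24H cells, against 906, 1063 and 483 in CD24L cells (adjusted p = 0.316). The list of dendritic cell and class II genes had a median of -0.14 over 9 genes, 5 below 0 and 4 above. Cd83 was at -1.26 ± 0.36 and the integrin chain Itgax at -0.89 ± 0.30. Of all 14 members on the array 7 were below 0. With no filter Flt3, named after its value was seen, was at 1.17 ± 0.33 (adjusted p = 0.383).

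Of 19 chemokine genes 17 were below 0, Ccl5 passed, and the median was -0.54. Ccl3, a macrophage chemokine, had 68.2, 765 and 77.7 in CD24H cells, against 331, 3639 and 266 in CD24L cells. It was lower in CD24H cells within every tumor, but tumor 2 was highest in both groups, so the groups overlapped (-1.83 ± 0.43, adjusted p = 0.193). Cxcl13, which attracts B cells, had a difference of -1.88 ± 0.61 and Ccl20 of -1.43 ± 0.41, neither past the threshold. The chemokine receptor list had a median of 0.01 over 7 genes, and Ccr2, a receptor of monocytes and some T cells, had -1.95 ± 0.49 (adjusted p = 0.212). Ccl20 and Ccr2 reached the test only through the CD29L CD24L arrays, so their differences do not support a direction. Of 17 interferon response genes 13 were below 0 and none passed (median -0.25). Ifit1, an antiviral effector, had 359.7, 141 and 231 in CD24H cells, against 1427, 457 and 965 in CD24L cells (adjusted p = 0.248). Gbp2, a guanylate-binding protein, had -1.26 ± 0.41.

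**Figure D2:**
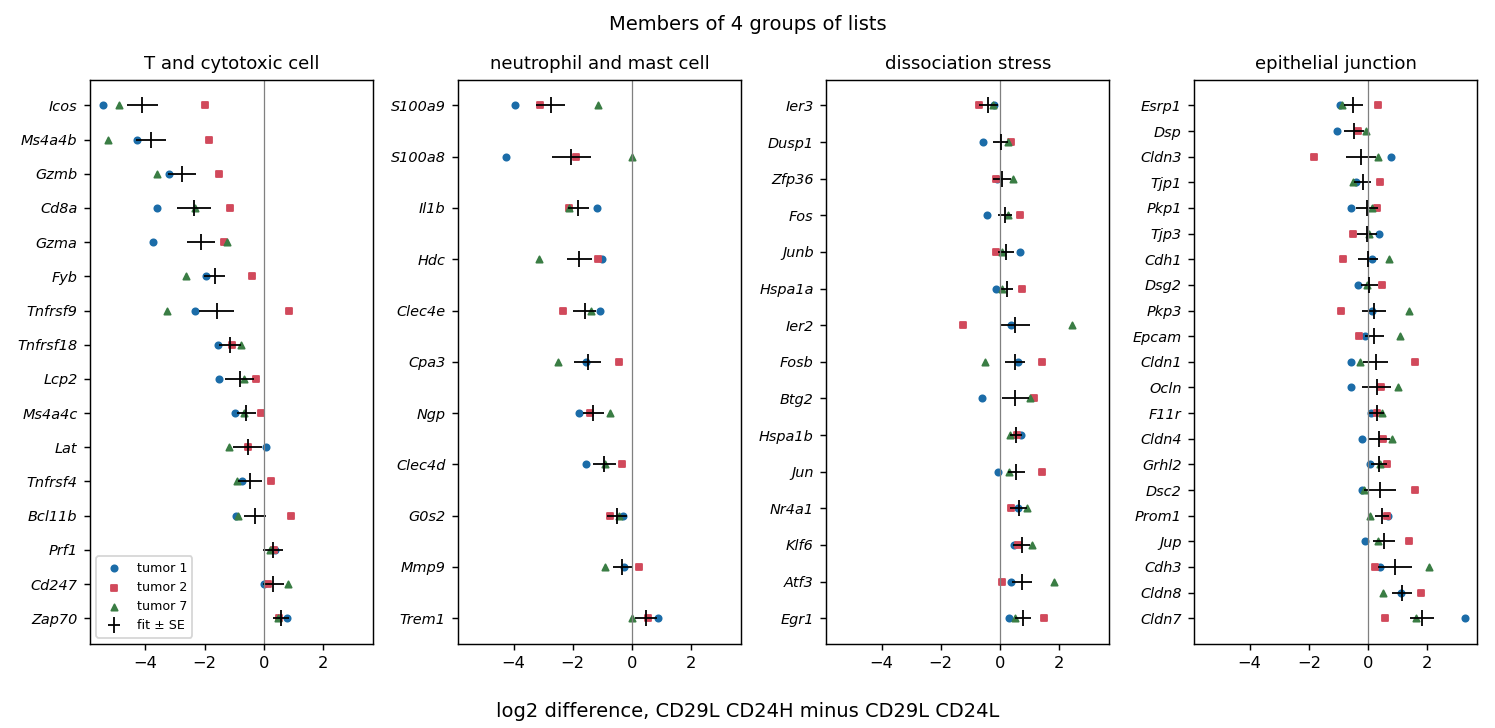
Log2 differences (CD29L CD24H minus CD29L CD24L, horizontal axis) of the members tested of 4 groups of lists, with 1 point per tumor and the fitted value with its SE in black. Icos, Ms4a4b and Gzmb lie farthest below 0 at the top left, the dissociation stress genes lie mostly above 0, and Cldn7 lies farthest above 0 among the junction genes.

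No matrix or stromal gene of the lists passed within CD29L cells, and the tumors disagreed in direction for fibroblast genes. Of 17 fibroblast and collagen genes 16 had a fitted difference below 0, none at an unadjusted p under 0.05, with a median of -0.48. The medians within tumors 1, 2 and 7 were -0.22, 1.00 and -2.16, and without tumor 7 the fitted median was 0.36. Of 11 matrix protease genes 10 were below 0 and none passed (median -0.71). Mmp13, a collagenase, had 124, 135 and 55.5 in CD24H cells, against 316, 721 and 208 in CD24L cells, groups that did not overlap (-1.60 ± 0.43, adjusted p = 0.268). Timp1, a metalloproteinase inhibitor, had -1.16 ± 0.45 (adjusted p = 0.464). In the mesenchymal list (median -0.57, 12 genes) Zeb2, a repressor of epithelial genes, had 106, 672 and 318 in CD24H cells, against 397, 2516 and 695 in CD24L cells, lower within each tumor (adjusted p = 0.222). S100a4, a calcium-binding protein of motile cells, had -1.63 ± 0.54 (adjusted p = 0.408).

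The luminal list had a median of 0.01 over 16 genes and the basal list 0.03 over 10, and no member passed. Krt8, a luminal keratin, had 10455, 2509 and 48254 in CD24H cells, against 3623, 8759 and 39058 in CD24L cells. Its tumors differed in direction, as did those of its partner Krt18 (-0.23 ± 0.30) and the basal keratin Krt5 (-0.16 ± 0.37), and the fitted sign of all 3 turned under some alternatives. The basal keratin Krt14 had -0.42 ± 0.27, and Krt15 1.21 ± 0.46. Esr1, the oestrogen receptor, had 383, 174 and 62.9 in CD24H cells, against 134, 50.0 and 34.7 in CD24L cells (1.05 ± 0.36, adjusted p = 0.415). Pgr, the progesterone receptor, had 1.14 ± 0.47, Gata3, a luminal transcription factor, -0.92 ± 0.41, and the receptor kinase Kit 0.62 ± 0.27, none past the threshold. Gata3 reached the test only through the CD29L CD24L arrays.

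Of 21 junction genes 14 were above 0 and none passed (median 0.26). Cldn7, a tight junction claudin, had 14355, 2207 and 30382 in CD24H cells, against 1462, 1458 and 9818 in CD24L cells. Each tumor was higher in CD24H cells, tumor 2 by little, and the adjusted p was 0.149. Cldn8, another claudin, had 1.15 ± 0.33 (adjusted p = 0.316). Epcam, the epithelial adhesion molecule, had 0.22 ± 0.31, and its sign turned without tumor 7.

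Of 15 genes known to respond to tissue dissociation 14 were above 0 in CD24H cells, 5 at an unadjusted p under 0.05. Of all genes tested 55.2% were above 0 and 4.86% were higher at that p. None of the 15 passed, and their median of 0.52 was 0.21 without tumor 2 and 0.27 without tumor 7. Egr1, an immediate early transcription factor, had 26159, 37042 and 29465 in CD24H cells, against 21319, 13132 and 20456 in CD24L cells (0.77 ± 0.27, adjusted p = 0.431). Klf6, another early factor, had 10126, 12631 and 18898, against 7231, 8174 and 8838. Neither gene's groups overlapped. Atf3, a stress-induced factor, had 0.76 ± 0.34, carried mainly by tumor 7.

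**Figure D3:**
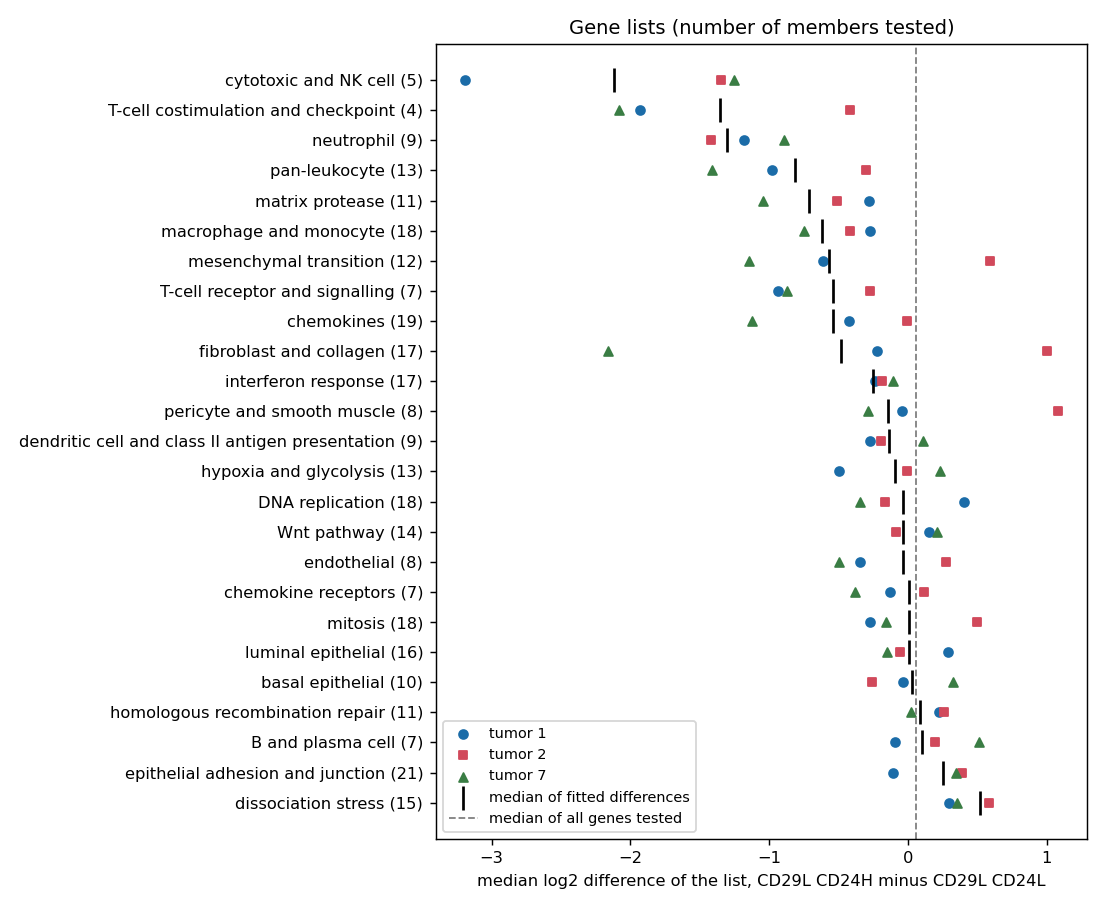
Median log2 difference (CD29L CD24H minus CD29L CD24L, horizontal axis) of each list with at least 3 members tested, with 1 point per tumor, a bar for the median of the fitted differences and a dashed line for all genes tested (0.06). The bars run between -2.12 for the cytotoxic list (-0.62 without tumor 1) and 0.52 for dissociation stress (0.21 without tumor 2), and the points of tumor 2 and tumor 7 lie far apart for fibroblast genes. Of the 5 cytotoxic genes tested 3 reached the test only through the CD29L CD24L arrays, so that bar does not support a direction. Over all 16 cytotoxic genes on the array the median was -1.47.

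The CD24 difference was then set against that of CD29H cells from the same tumors. The interaction (the difference within CD29L minus that within CD29H) passed for 211 of 10916 genes (1.93%), 191 above 0 (1.75%) and 20 below 0 (0.183%). Without the tumor block no gene passed (limma, 646 at an unadjusted p under 0.05), nor without tumor 2 (923), without the 2 arrays of lowest actin ratio (944) or with the Gapdh ratio as a covariate (347). Of the 191 genes, 187 were called lower in CD24H cells within CD29H, where 4.62% of all genes were called lower. Their median difference was -0.05 within CD29L and -2.81 within CD29H. The 20 genes were all below 0 within CD29L, at a median of -1.29, and 18 of them above 0 within CD29H, at a median of 0.96. The interaction is made of these same differences, so picking genes by it largely fixed their directions. The counts and medians only describe the genes picked, and the 4.62% of all genes is no measure for them.

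The 8 largest interactions above 0 included several genes of the extracellular matrix. Bicc1, an RNA-binding protein, had 93.2, 541 and 125 in CD29L CD24H cells, against 77.1, 188 and 169.9 in CD29L CD24L cells. In the CD29H gate it had 144, 127 and 86.2 in CD24H cells, against 2913, 3783 and 2535 in CD24L cells. The CD29L groups overlapped while the CD29H groups stood far apart (interaction 4.77 ± 0.56, adjusted p = 0.00216). The next by size were the matrix genes Dpt (4.69 ± 1.09) and Col5a3 (4.26 ± 0.63), the secreted protein gene Srpx2 (4.16 ± 0.76), and Mrc2, a collagen uptake receptor (4.07 ± 0.50). The thrombospondin gene Thbs3 (4.04 ± 0.59), the proteoglycan gene Ogn (3.98 ± 0.88) and Pi16, a gene of fibroblasts (3.92 ± 0.80), followed. None of these 8 passed within CD29L cells. Of the fibroblast list, 9 of 17 were among the 191, and its median was -0.48 within CD29L and -3.53 within CD29H. From the lists, Pcolce, an enhancer of procollagen processing (3.49 ± 0.74), the protease gene Mmp3 (3.20 ± 0.59), Esr1 (2.90 ± 0.50) and the repressor gene Zeb1 (2.65 ± 0.62) were also among them.

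The 8 largest interactions below 0 included 3 of the 10 genes called within CD29L cells. Atp5l, a subunit of ATP synthase, had 297, 93.3 and 195 in CD29L CD24H cells, against 562, 1706 and 584 in CD29L CD24L cells. In the CD29H gate it had 247, 642 and 449.8 in CD24H cells, against 236, 139.7 and 163 in CD24L cells. The order of the CD24 gates was opposite in the CD29 gates, with the widest gap in tumor 2 (-3.14 ± 0.67, adjusted p = 0.027). The highest value in each CD29 gate (1706 and 642) came from 1 of the 2 arrays of lowest actin ratio. The part of RNA quality in this order was not tested beyond the fits above. Ms4a4b (-3.08 ± 0.70), Gm12338 (-3.05 ± 0.70), the ribosomal protein gene Rpl41 (-3.03 ± 0.72), Il18r1 (-2.88 ± 0.60), the retinoic acid binding protein gene Crabp2 (-2.86 ± 0.57), P2ry10 (-2.71 ± 0.59) and the mitochondrial ribosomal gene Mrps33 (-2.68 ± 0.60) followed. Of the 10 genes called within CD29L cells, 3 therefore passed the interaction too, and for the other 7 a difference was not shown. These 3, Ms4a4b, Il18r1 and P2ry10, reached the test only through the CD29L CD24L arrays. The filter thus favoured an interaction below 0 for them, so their interactions do not support a difference between the CD29 gates. Icos had an interaction of -2.98 ± 0.74 with an adjusted p of 0.057. Within CD29H its signals were 99.6, 64.4 and 7.65 in CD24H cells, against 234, 117 and 97.1 in CD24L cells. Nfkbie was the 1 gene of the 10 also called within CD29H, at -1.14 ± 0.29 (adjusted p = 0.0341), where 4.93% of all genes were called.

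**Figure D4:**
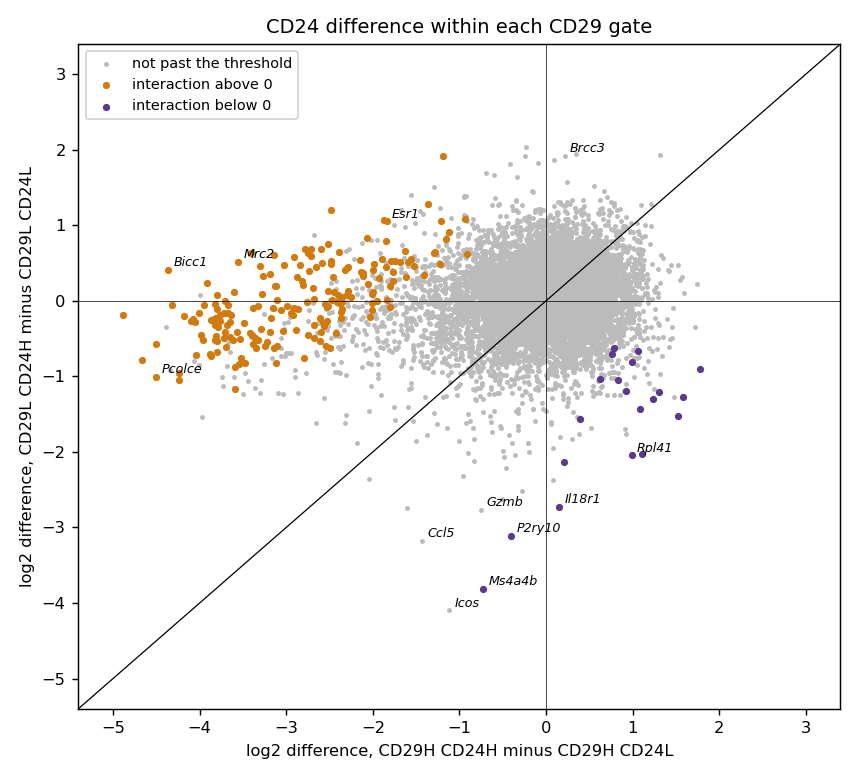
Log2 CD24 difference of each gene tested within CD29L cells (vertical axis) against that within CD29H cells (horizontal axis), with the diagonal of equal differences. The 191 genes with an interaction above 0 (orange) spread to the left near the horizontal line, and the 20 below 0 (purple) lie under the diagonal, Ms4a4b, P2ry10 and Il18r1 among them.

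**Figure D5:**
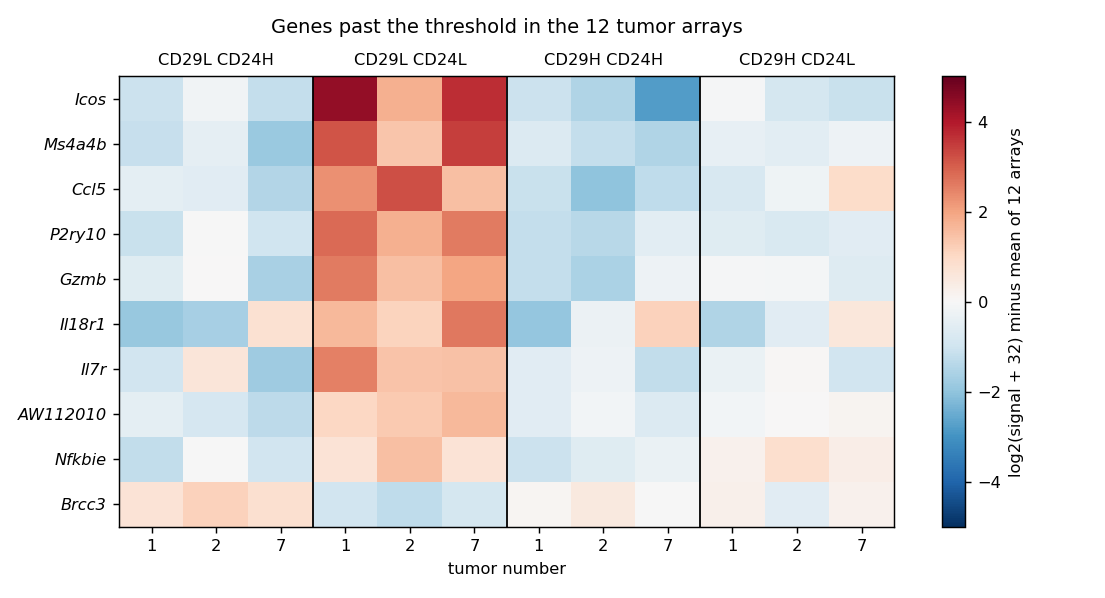
Colour map of the 10 genes over the 12 tumor arrays, as log2(signal + 32) minus the gene's mean over these arrays, with groups in blocks and tumor numbers below. The CD29L CD24L block is highest for the 9 genes that fell and lowest for Brcc3, with tumor 2 paler for Icos and Ms4a4b.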

How the data were processed

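Signal intensity from a mouse expression array was measured in 18 samples. The submitters' processing notes name GCOS, without a version, for the deposited intensity values, and each array has the same trimmed mean (500.0, 2% off each end). The table has 45101 probe sets, 34945 with 1 gene symbol, 932 with several and 9160 with none. The brightest probe set stood for a gene. Values were taken as log2(signal + 32), and the 40% of genes with the lowest mean over 12 tumor arrays were left out.

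Limma 3.58.1 in R 4.3.3 fitted 4 group means with tumor as a block (6 residual degrees of freedom), with an intensity trend and Benjamini-Hochberg adjustment over 10916 genes. Same-numbered arrays come from 1 tumor, and their deviations correlated at 0.389 to 0.728 (18 pairs), against -0.458 to -0.0526 for different tumors (36 pairs). No 2 arrays were alike beyond a correlation of 0.980. The fit was tested on simulated data. The number of arrays limits the precision.

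The comparison and the 29 gene lists were chosen with earlier results of these data known. The naming rule takes Cd24a, Itgb1, the 15 genes with the largest change per direction past the threshold (or the 5 with the smallest p where fewer than 5 pass), list members past the threshold or with the 4 largest differences, the first 2 of each list, and the 8 largest interactions per direction. Ptprc and the keratins Krt8, Krt18, Krt5 and Krt14 are taken in any case. It takes 152 genes, of which only some are named here. Alternatives were the tumor block, array sets, offset, scaling, filter, probe set choice, intensity trend, actin and Gapdh ratios and leaving out each array or tumor.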

Additional observations from a re-analysis of the deposited data

Results flagged for a closer look

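The CD24 difference itself differed between CD29L and CD29H tumor cells for 211 genes by the interaction test. Above 0, which means a difference lower within CD29H than within CD29L, were Bicc1 (4.77), Dpt (4.69), Col5a3 (4.26), Srpx2 (4.16), Mrc2 (4.07), Thbs3 (4.04), Ogn (3.98), Pi16 (3.92), Pcolce (3.49), Mmp3 (3.20), Esr1 (2.90) and Zeb1 (2.65). Below 0 were Atp5l (-3.14), Ms4a4b (-3.08), Gm12338 (-3.05), Rpl41 (-3.03), Il18r1 (-2.88), Crabp2 (-2.86), P2ry10 (-2.71) and Mrps33 (-2.68). All are log2 differences of differences, and none is called without tumor 2 or with the Gapdh ratio as a covariate. Ms4a4b, Il18r1 and P2ry10 reached the test only through the CD29L CD24L arrays, so the filter favoured values below 0 for them.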

How the results depend on the processing

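Of 10 genes called within CD29L cells in the fit with tumor as a replicate block, the fit with no replicate block called 2 and a random block 8. An offset of 1 and leaving out 60% of genes each called 0 (limma, 978 and 692 genes at an unadjusted p under 0.05), the mean of probe sets 6, no filter 17, the actin ratio as a covariate 33, and leaving out the 2 arrays of lowest actin ratio 19, and the Gapdh ratio as a covariate 1, the last 2 chosen after seeing the data. Leaving out an array or tumor gave 0 to 20. For the interaction, 211 genes became 0 with no replicate block, 87 with an offset of 1, 104 with no filter, 137 with 60% left out, 131 with the actin ratio and 0 without the 2 arrays or with the Gapdh ratio, with 0 to 249 when an array or tumor was left out. Icos was called in 21 of 29 alternatives, Ms4a4b in 20 of 27, P2ry10 in 20 of 26, Brcc3 in 13 of 30 and Nfkbie in 6 of 30. Alternatives in which a gene was under the filter could not call it and are left out of its count. The 9 genes that fell stayed below 0 in every alternative that tested them.

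The sign of some differences within CD29L cells turned. Over the fits that each left out an array or a tumor, values ran from -0.14 to 2.06 for Brcc3, -0.0028 to 0.82 for Cd24a, -0.21 to 0.49 for Epcam, -0.74 to 0.91 for Krt8, -0.14 to 0.79 for Bicc1 and -0.53 to 0.012 for Krt18. They ran from -0.61 to 0.52 for Krt5, -2.03 to 1.24 for Dpt, -0.79 to 0.63 for Col5a3, -0.41 to 0.99 for Srpx2, -1.34 to 1.10 for Ogn and -1.42 to 0.47 for Pi16. With averaged probe sets Zap70 was at -0.41, Krt8 at -0.14 and Ogn at 0.11, and with a median shift Krt8 was at -0.031. Without the 2 arrays of lowest actin ratio Krt18 was at 0.073 and Krt5 at 0.45, and Krt5 was at 0.033 with an offset of 1. With the Gapdh ratio Itgb1 was at -0.46, Mrc2 at -0.54, Thbs3 at -0.47, Srpx2 at -0.10, Krt18 at 0.63, Krt5 at 0.14 and Mrps33 at 0.11. The cause of these changes was not tested. Dim genes are limited by signal over background.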

Other observations

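The lists of the cell cycle, repair and metabolism had medians near that of all genes tested, while single members differed more. The mitosis list had a median difference of 0.01 over 18 genes, DNA replication -0.04 over 18, the Wnt pathway -0.04 over 14, and hypoxia and glycolysis -0.09 over 13, where all genes tested had 0.06. The homologous recombination list had 0.09 over 11 genes. Its largest difference was that of Rad51c, with 204, 211 and 249 in CD29L CD24H cells, against 62.7, 34.3 and 13.8 in CD29L CD24L cells. The groups did not overlap, and the difference of 1.94 did not pass the threshold. Rad51c passed in the fits with no intensity trend and with the actin ratio as a covariate. Its other probe set was dim and had a difference of 0.14. Mki67, the proliferation antigen gene, had 4477, 8533 and 1764 in CD29L CD24H cells, against 7702, 11418 and 4012 in CD29L CD24L cells. It was lower in CD24H cells within each tumor, and the groups overlapped (-0.79 ± 0.30, adjusted p = 0.458). Arglu1 and Slc35b2 are in none of the lists. Arglu1, a gene linked to splicing, had 24175, 40319 and 22536 in CD24H cells, against 13112, 13218 and 7932 in CD24L cells (adjusted p = 0.149). Slc35b2, a Golgi carrier of the sulfate donor, had 450.5, 243 and 344, against 21.6, 183 and 58.4 (adjusted p = 0.162).

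The normal fractions held the 9 genes at differing levels. In the 1 normal CD24L array Icos was at 1803, Ms4a4b at 1163, P2ry10 at 1766 and Il7r at 1866. That array is labelled as epithelial cells. Its summed fibroblast and collagen signal was 450985, the highest of all groups, and its junction sum was 5686, the lowest. In the normal CD29PCD24H arrays Icos was at 79.5 and 73.1, while AW112010 was at 13644 and 12485 and Nfkbie at 2711 and 2361. These arrays entered no test.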
